A study of Mus musculus with 10 samples.

Results

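RNA was measured in LSKCD48-CD150+ HSCs, the Lin-Sca-1+c-Kit+ bone marrow fraction that is enriched for hematopoietic stem cells, and 9 of the 26146 genes in the count table were taken here by their symbols: *Sla*, *Sla2*, *Src*, *Fyn*, *Lyn*, *Fgr*, *Lck*, *Yes1* and *Cbl*. All 9 of 9 members were in the table and all 9 passed the filter on low counts that left 14165 tested genes. The control libraries (Cited2CTL, titled wildtype by the submitters) came from 5 *Cited2* fl/fl mice without Cre, and the others (Cited2CKO, titled *Cited2* KO) from 5 *Cited2* fl/fl;*Vav-iCre* mice, in which the *Vav* promoter drives Cre throughout the hematopoietic system from fetal life on. The mice were 8 to 12 weeks old, both genotypes carry the floxed allele, and controls that express Cre without the floxed allele were not analysed here. Each library held the HSCs of 1 mouse and is named below by genotype and number, CTL 1 to CTL 5 and CKO 1 to CKO 5. The set was assembled with the comparison of the genotypes already known, so the differences of its members between genotypes are a description, and the members called in the fit over all genes are only counted.

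SRC family kinases are membrane-anchored tyrosine kinases that carry an SH3 domain, an SH2 domain and a kinase domain, and they start the phosphorylation cascades of cytokine receptors, integrins and immune receptors. A phosphorylated tyrosine in the tail, written by CSK and removed by phosphatases such as CD45, holds them in a closed, inactive form. The SRC-like adaptors SLAP (encoded by *Sla*) and SLAP2 (encoded by *Sla2*) have the SH3 and SH2 domains of these kinases but no kinase domain. They bind the ubiquitin ligase c-CBL (encoded by *Cbl*) and bring it to activated receptors, which are then removed from the cell surface and degraded.

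The relatedness of the members can be read in their coding sequences, and it decides how far reads of 85 bases can be told apart. The stretches of 85 coding bases in which 2 members resembled each other most are shown for the closest pair of all and for both adaptors, from the GENCODE transcripts of GRCm38, with the bases that differ between the sequences of a pair in capitals. *Src* and *Fgr*, the closest pair, shared 76 of 85 bases in a stretch of their kinase domains, at chr2:157467518-157467602 on the plus strand for *Src* and at chr4:132997479-132997563 on the plus strand for *Fgr*.
Src: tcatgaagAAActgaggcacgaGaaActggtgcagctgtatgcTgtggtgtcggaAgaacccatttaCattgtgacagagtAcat
Fgr: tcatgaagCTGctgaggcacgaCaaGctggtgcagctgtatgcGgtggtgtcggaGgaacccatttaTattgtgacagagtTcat
*Sla* and *Sla2* shared 59 of 85 bases at their closest, in coding bases 468 to 552 of *Sla* and 465 to 549 of *Sla2*, both of which cross an exon boundary. *Sla2* came closer to *Fgr*, with 63 of 85 bases, than to *Sla*, and as close to *Fyn*, with 59.
Sla: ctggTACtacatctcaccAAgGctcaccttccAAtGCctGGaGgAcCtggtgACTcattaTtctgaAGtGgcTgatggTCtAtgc
Sla2: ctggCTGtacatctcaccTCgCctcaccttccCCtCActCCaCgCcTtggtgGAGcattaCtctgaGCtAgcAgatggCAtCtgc
Over the whole coding sequences, aligned without gaps at any offset, the longest run of identical bases was 23 for *Src* and *Fgr*. It was 12 for *Sla* and *Sla2*. No window of 85 exonic bases was shared without a mismatch between any of the members.

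*Sla2* and *Src* lie on chromosome 2, *Lyn*, *Fgr* and *Lck* on chromosome 4, and *Fyn* on chromosome 10, which also holds *Cited2*, 21.6 megabases away (coordinates from the GENCODE annotation of GRCm38). *Sla*, at chr15:66780819-66831829 on the minus strand, lies wholly inside the span of *Tg*, the thyroglobulin gene, on the opposite strand, and the genes shared 0 exonic bases. *Tg* had 4 to 40 counts per library and 4.77 ± 3.24 CPM (counts scaled to a library of common size, TMM-adjusted) in Cited2CTL and 6.44 ± 3.25 CPM in Cited2CKO HSCs (SD, n = 5 each). *Sla2*, at chr2:156872457-156887192 on the minus strand, shared 731 exonic bases, or 23.6% of its exons, with *Rab5if* on the opposite strand. Counting by strand is not stated for these data, so reads of *Sla2* and *Rab5if* cannot be told apart in those bases. *Rab5if* had 159.6 ± 6.99 CPM in Cited2CTL and 160.02 ± 4.73 CPM in Cited2CKO HSCs (SD, n = 5 each). Of the kinases, *Lyn* shared 6.09% of its exonic bases with Gm26857 and *Yes1* shared 8.46% with Gm10461. Counted as windows of 85 exonic bases that also occur in another gene, the shares were 18.0% for *Sla2* (*Rab5if*), 13.2% for *Lyn* (Gm11787 and Gm26857), 7.26% for *Yes1* (Gm10461), 0.403% for *Cbl* and 0 for *Sla*, *Src*, *Fyn*, *Fgr* and *Lck*.

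The totals of the deposited counts were 3058690 to 4548795 per Cited2CTL library and 3500215 to 4315029 per Cited2CKO library. *Cited2* itself, the deleted gene, lay between 101.3 and 221.6 CPM in the Cited2CTL libraries and between 3.80 and 8.30 CPM in 4 of the Cited2CKO libraries, but reached 120.1 CPM in the library labelled CKO 3. That is 73.6% of the Cited2CTL mean, and a wrong label and an incomplete deletion cannot be told apart. CKO 3 stands below for the library so labelled, and values without it are given for *Sla* and for some of the other genes, among them *Csk*, whose direction turns without it. The 11 HSC markers summed to 2061 to 2323 CPM in Cited2CTL and 1851 to 2090 CPM in Cited2CKO libraries, and none of them was called changed. Of 5 multipotent progenitor markers 1 was called, *Cd48*, a surface protein used to sort the cells out, with 14.4 to 27.4 CPM in Cited2CTL and 38.5 to 60.8 CPM in Cited2CKO libraries. The 5 markers together summed to 507.9 to 605.3 CPM in Cited2CTL and 527.1 to 575.4 CPM in Cited2CKO libraries. *Flt3* and *Cd244a*, also among them, had log2 fold changes of -0.36 and 0.75 and were not called. The part of *Cd48* in the differences reported here was not tested. Of the markers of other blood cells that passed the filter, none was called, but only 1 of 7 T cell, 2 of 6 B cell, 1 of 4 NK cell and 2 of 6 erythroid markers were tested, against 7 of 8 myeloid and 5 of 5 megakaryocyte markers.

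*Sla* and *Sla2* were the most abundant members by CPM and by CPM per kilobase of the deposited gene length. The latter was used to compare levels between genes. The deposited length of *Sla* was 2886 bases, against 9186 annotated exonic bases. It was 2508 against 3099 for *Sla2* and 3456 against 4073 for *Lyn*. The place of *Sla* among the members and among the tested genes therefore depends on the length used. In Cited2CTL HSCs *Sla* stood at 73.2 ± 5.48 and *Sla2* at 69.0 ± 5.02 CPM per kilobase (SD, n = 5), above 89.7% and 88.6% of the tested genes. *Sla* was the higher of both adaptors in 3 of 5 Cited2CTL libraries, and their ranges overlapped. *Lyn* followed at 42.8 ± 4.05 CPM per kilobase, with no overlap with either *Sla2* above or *Cbl* below.

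The middle of the order was held by *Cbl* at 14.3 ± 2.23, *Fyn* at 13.3 ± 2.37, *Lck* at 11.6 ± 2.77 and *Yes1* at 10.1 ± 2.62 CPM per kilobase in Cited2CTL HSCs (SD, n = 5). Each of these overlapped with its neighbour, and *Cbl* exceeded *Fyn* in 3, *Fyn* exceeded *Lck* in 4 and *Lck* exceeded *Yes1* in 3 of 5 libraries. *Src*, the founding member of the family, stood at 4.09 ± 0.83 and *Fgr*, a kinase of myeloid cells, at 2.17 ± 0.49 CPM per kilobase, each below the next higher gene in all 5 libraries with no overlap. Thus 15.9% of tested genes lay below *Fgr* and 77.3% below *Lyn*. In Cited2CKO HSCs the 9 genes stood in the same order by their means.

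*Sla* was higher in every Cited2CKO library than in any Cited2CTL library. The Cited2CTL libraries CTL 1 to CTL 5 had 194, 208.4, 199, 225.7 and 229.5 CPM, from 580 to 1049 counts. The Cited2CKO libraries CKO 1 to CKO 5 had 292.4, 295.1, 273, 314 and 285.7 CPM, from 1068 to 1240 counts. The lowest Cited2CKO value was that of CKO 3, the library that kept *Cited2*, and it still lay above CTL 5, the highest Cited2CTL library. The means were 211.3 ± 15.8 and 292 ± 14.9 CPM (SD, n = 5 each), a 1.38-fold difference and a log2 fold change of 0.47 with a standard error of 0.07. As with any bulk library, more cells that express *Sla* and more *Sla* RNA per cell cannot be told apart.

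*Sla* was the 1 member of 9 called higher between genotypes by edgeR at an adjusted p under 0.05 and a fold change above 20%, and 0 members were called lower. Over all tested genes 0.226% were called and 0.120% were called higher. With DESeq2 1 of 9 members was called, against 2.27% of all tested genes, with the correction for GC content and gene length 0 of 9, against 0.0648%, and without CKO 3 1 of 9, against 0.292%. Likewise 1 of 9 members did not overlap between genotypes, against 3.33% of all tested genes: it was higher in Cited2CKO HSCs, as were 1.35%, and 0 members were lower, as were 1.98%. Because the members were assembled with this comparison known, nothing is read from these counts. *Sla* was not called without CTL 2 (log2 fold change 0.46), without CKO 2 (0.46) or with a correction for GC content and gene length, alone (0.38) or with the replicate number as a block (0.38). Without CKO 3 its log2 fold change was 0.49.

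**Figure D1:**
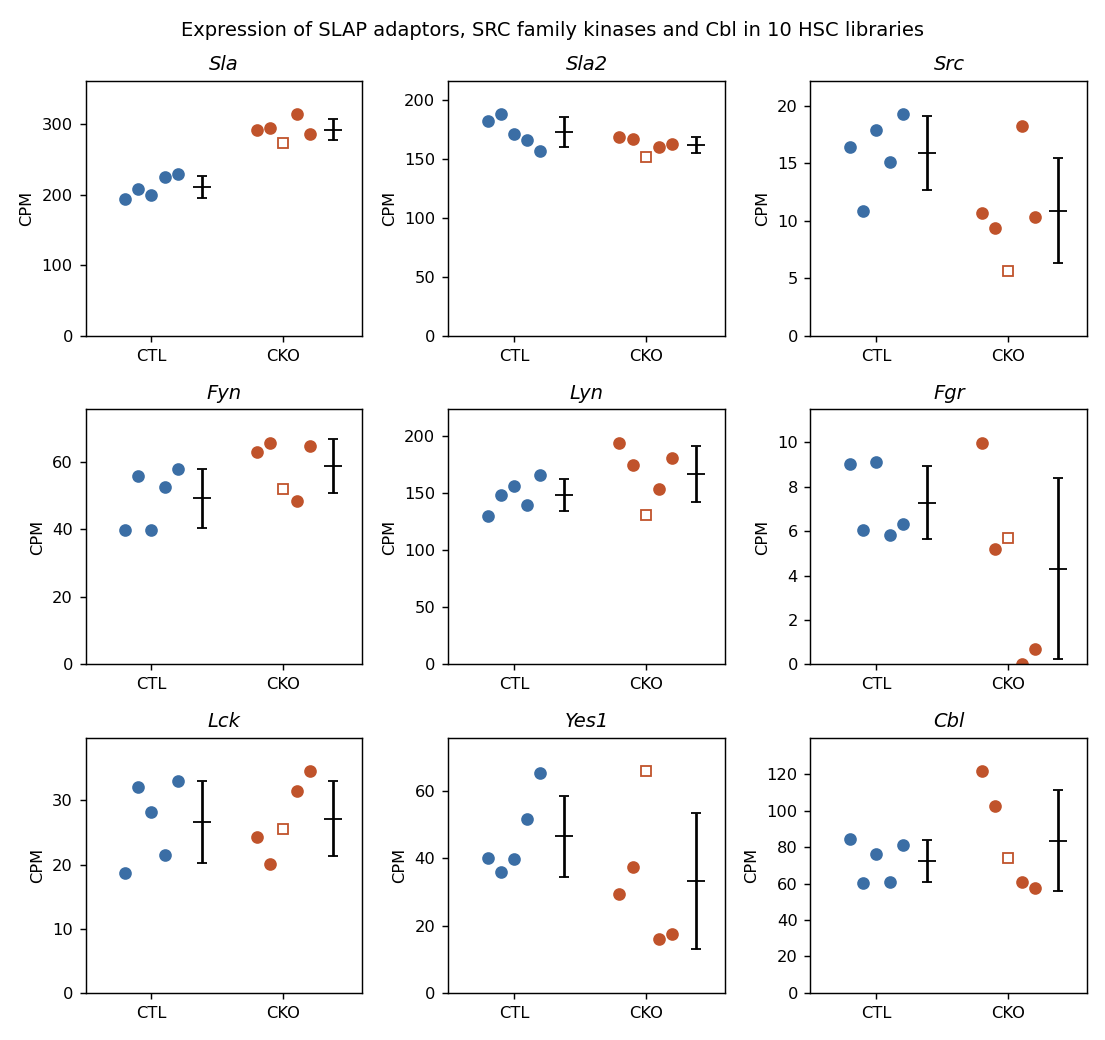
Each panel plots the CPM of 1 member in every library, Cited2CTL on the left and Cited2CKO on the right, with black marks for the mean and SD of 5 libraries and an open square for CKO 3. The *Sla* libraries separate by genotype at 229.5 CPM and below against 273 CPM and above, and those of the other 8 members overlap.

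*Sla2*, the second SLAP adaptor, had 182.6, 188.2, 171.4, 166.5 and 156.7 CPM in CTL 1 to CTL 5. In CKO 1 to CKO 5 it had 169, 167.2, 151.7, 160.5 and 162.9 CPM. The ranges overlapped, with CTL 1 and CTL 2 highest and CKO 3 lowest. The means were 173.1 ± 12.6 and 162.3 ± 6.79 CPM (SD, n = 5 each), and the log2 fold change was -0.09 with a standard error of 0.07.

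The balance of both adaptors differed accordingly. The ratio of *Sla* to *Sla2* in CPM per kilobase was 0.923, 0.962, 1.009, 1.18 and 1.27 in CTL 1 to CTL 5. It was 1.503, 1.53, 1.56, 1.70 and 1.52 in CKO 1 to CKO 5. Every Cited2CKO library lay above every Cited2CTL library, and the means were 1.07 ± 0.15 and 1.56 ± 0.08 (SD, n = 5 each). The ratio rests on the same *Sla* values that were known when the genes were chosen and on *Sla2* counts that may include reads of *Rab5if*. Its level also depends on the deposited gene lengths, which are the same for both genotypes.

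*Cbl*, the ubiquitin ligase that the SLAP adaptors recruit, had 84.3, 60.1, 76.1, 60.7 and 80.96 CPM in CTL 1 to CTL 5 and 121.7, 102.4, 74.2, 61.1 and 57.8 CPM in CKO 1 to CKO 5. CKO 1 and CKO 2 exceeded all controls, whereas the other 3 Cited2CKO libraries lay within or below their range. The means were 72.4 ± 11.4 and 83.5 ± 27.7 CPM and the log2 fold change was 0.21 with a standard error of 0.20.

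Of the kinases, *Lyn*, which acts downstream of KIT and other cytokine receptors, had 129.7, 147.8, 155.8, 139.7 and 165.9 CPM in CTL 1 to CTL 5 and 193.7, 174.7, 130.5, 153.5 and 180.2 CPM in CKO 1 to CKO 5. CKO 1, CKO 2 and CKO 5 were above all controls, and CKO 3 lay close to CTL 1, the lowest. *Lyn* had a log2 fold change of 0.17 with a standard error of 0.11, which was 0.25 without CKO 3.

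*Fyn*, a broadly expressed family member that signals from immune receptors and integrins, had 39.8, 55.8, 39.7, 52.4 and 57.8 CPM in CTL 1 to CTL 5 and 62.8, 65.6, 52, 48.2 and 64.5 CPM in CKO 1 to CKO 5. CKO 1, CKO 2 and CKO 5 again exceeded all controls, and CKO 3 and CKO 4 lay inside their range. *Fyn* had a log2 fold change of 0.25 with a standard error of 0.15.

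*Lck*, the kinase of the T cell receptor co-receptors, had 18.7, 32.1, 28.2, 21.4 and 33.04 CPM in CTL 1 to CTL 5 and 24.2, 20.04, 25.5, 31.5 and 34.6 CPM in CKO 1 to CKO 5. The libraries of both genotypes were interleaved, and the log2 fold change was 0.02 with a standard error of 0.21. The 7 T cell markers together summed to 5.02 to 11.5 CPM in Cited2CTL and 5.00 to 15.6 CPM in Cited2CKO libraries, below *Lck* itself in both groups, and their part in the level of *Lck* was not tested.

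*Yes1*, a broadly expressed kinase whose functions overlap with those of *Src* and *Fyn*, had 40.1, 35.9, 39.98, 51.7 and 65.4 CPM in CTL 1 to CTL 5 and 29.5, 37.6, 65.95, 16.2 and 17.5 CPM in CKO 1 to CKO 5. CKO 3 was the highest of all 10 libraries, while CKO 4 and CKO 5 were the lowest. *Yes1* had a log2 fold change of -0.48 with a standard error of 0.33, which was -0.89 without CKO 3.

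*Src* had 16.4, 10.9, 17.9, 15.1 and 19.3 CPM in CTL 1 to CTL 5 and 10.7, 9.40, 5.67, 18.2 and 10.4 CPM in CKO 1 to CKO 5, from 24 to 88 counts. All Cited2CKO libraries except CKO 4 lay below the lowest control. *Src* had a log2 fold change of -0.55 with a standard error of 0.31, which was -0.39 without CKO 3.

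*Fgr* had 9.03, 6.06, 9.11, 5.85 and 6.35 CPM in CTL 1 to CTL 5 and 9.98, 5.20, 5.67, 0 and 0.691 CPM in CKO 1 to CKO 5. CKO 1 was the highest of all libraries, and CKO 4 and CKO 5 held 0 and 3 counts. A count of 0 in CKO 4 allows a level of up to 0.882 CPM (3 counts, counting error only). For *Fgr* the log2 fold change was -0.74 with a standard error of 0.74. The 8 myeloid markers summed to 299.8 to 610.2 CPM in Cited2CTL and 316.3 to 481.8 CPM in Cited2CKO libraries, *Ly6g* was at 0 in all libraries, and their part in the level of *Fgr* was not tested.

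Across the 9 members, 5 log2 fold changes were above 0 and 4 below, with a median of 0.02, and the median of all tested genes was 0.0065. Over the 21 other analyses *Sla2* ran from -0.13 to -0.034, *Src* from -0.82 to -0.19, *Yes1* from -1.01 to -0.32 and *Fgr* from -1.65 to -0.43 (20 analyses), *Lyn* from 0.10 to 0.25, *Fyn* from 0.18 to 0.31 and *Cbl* from 0.029 to 0.31. *Lck* changed sign in 6 of 21. The spread between libraries differed widely between members. The coefficient of variation was 7.48% in Cited2CTL and 5.12% in Cited2CKO HSCs for *Sla* and 7.28% and 4.18% for *Sla2*. It was 25.9% and 60.8% for *Yes1*, 15.7% and 33.1% for *Cbl*, 20.3% and 42.0% for *Src* and 22.6% and 94.6% for *Fgr*. For *Lyn* it was 9.46% and 14.9%, for *Fyn* 17.8% and 13.5% and for *Lck* 23.9% and 21.4%. Thus both adaptors had the lowest coefficients of variation. The spread was wider in Cited2CKO HSCs for *Yes1*, *Cbl*, *Src*, *Fgr* and *Lyn* and narrower for *Sla*, *Sla2*, *Fyn* and *Lck*. Counting error, larger at few counts, is part of each value and was not separated from the spread between mice. Per library, *Fgr* had 0 to 42 counts and *Sla* 580 to 1240.

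**Figure D2:**
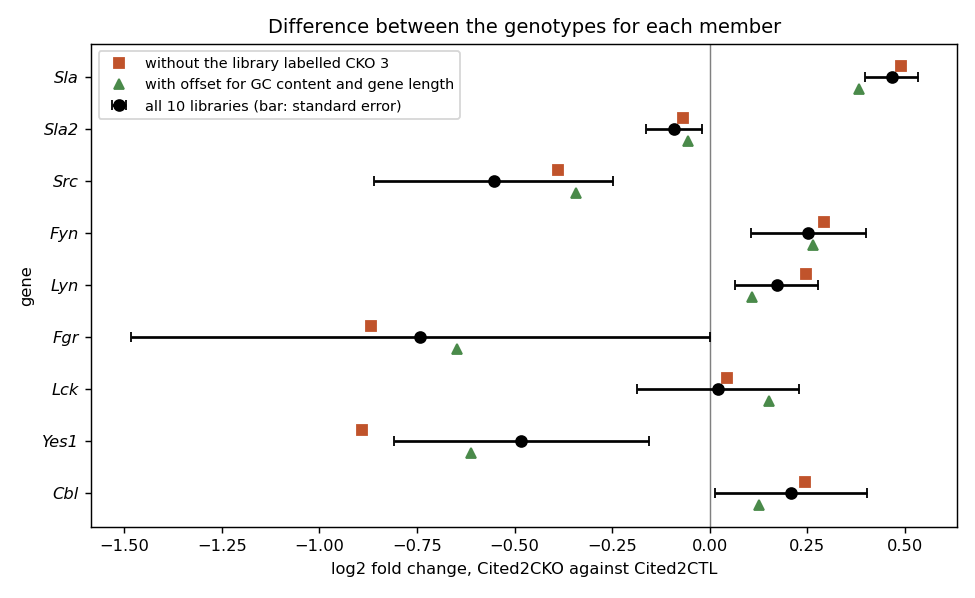
Points give the log2 fold change of each member, Cited2CKO against Cited2CTL, and bars its standard error. *Sla* lies at 0.47 with a standard error of 0.07, and the widest bar is that of *Fgr*, at -0.74 with a standard error of 0.74.

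Among 7 SRC family kinases, the 6 of the members and *Blk*, a B cell kinase, most of the RNA was that of *Lyn*. Their levels summed to 84.3 ± 9.83 CPM per kilobase in Cited2CTL and 87.2 ± 7.11 CPM per kilobase in Cited2CKO HSCs (SD, n = 5 each), with overlapping ranges of 72.2 to 99.4 and 79.3 to 95.7. *Lyn* made up 50.8% ± 1.86 of that sum in Cited2CTL and 55.02% ± 4.61 in Cited2CKO libraries. Its lowest share was 46.95%, in CKO 3.

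*Fyn* held 15.8% of the sum in Cited2CTL and 18.1% in Cited2CKO HSCs, and *Lck* held 13.7% in both. *Yes1* held 11.9% ± 2.21 and 8.44% ± 5.60, and in Cited2CKO libraries its share ran from 4.16% to 17.8%, the latter in CKO 3. The rest was shared by *Src*, with 4.88% and 3.25%, *Fgr*, with 2.63% and 1.43%, and *Blk*, with 0.277% and 0.0448%. *Blk* had 0 to 6 counts per library and did not pass the filter.

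**Figure D3:**
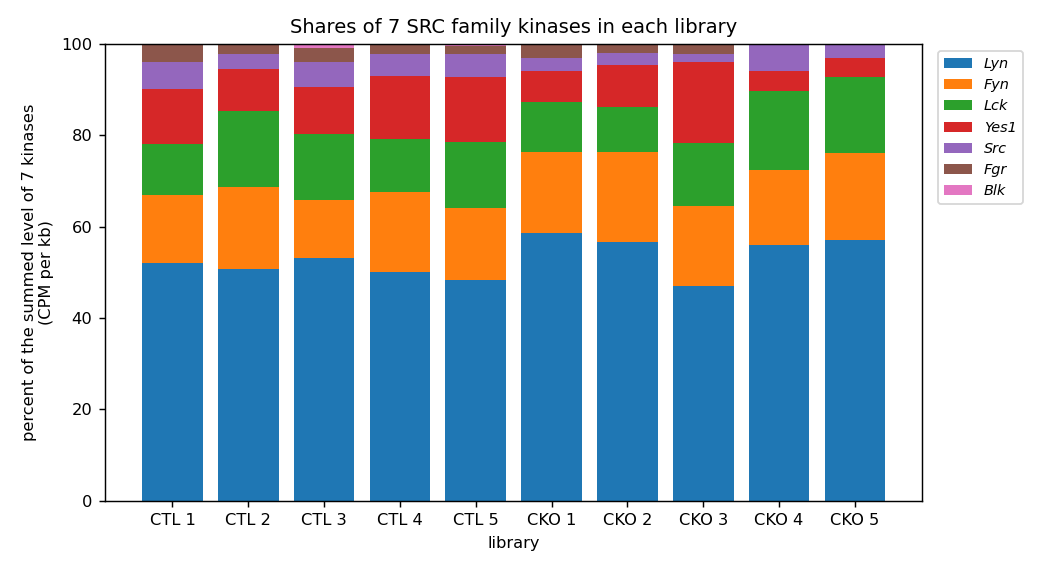
Stacked bars give the share of each of 7 SRC family kinases, in percent of their summed CPM per kilobase, in each of the 10 libraries. *Lyn* makes up the largest part of every bar, and *Yes1* is widest in CKO 3, at 17.8%.

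The genes whose profiles over the 10 libraries came nearest to that of *Sla* were found by the root mean square distance of log2 CPM centred on each gene's own mean, among 14112 genes with enough expression. *Ppp1r12a*, a subunit of myosin phosphatase, was nearest at 0.0962, followed by *Nubpl*, an assembly factor of mitochondrial complex I, at 0.0993. *Arhgap15*, a GTPase-activating protein for RAC, was at 0.102, *Casp1*, the inflammasome protease, at 0.105 and *Usp34*, a deubiquitinase, at 0.109, whereas the median distance of all genes compared was 0.386. The log2 fold changes of these 5 genes were 0.31, 0.52, 0.34, 0.47 and 0.33, in that order. With the correction for GC content and gene length all 5 were smaller, at 0.21, 0.39, 0.22, 0.35 and 0.13. All 5 were higher in every Cited2CKO library than in any Cited2CTL library, which the distance to *Sla* favours, and these genes were chosen by it.

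**Figure D4:**
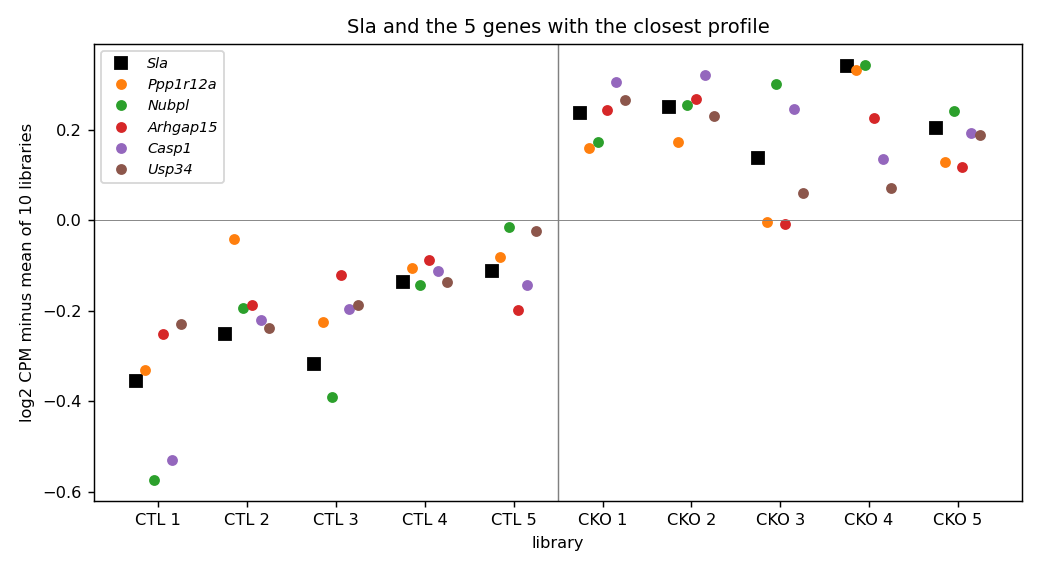
Points give the log2 CPM of *Sla* (black squares) and of the 5 genes with the nearest profiles (circles) in each library, minus the gene's mean over 10 libraries. All 6 genes lie below their Cited2CKO values in the 5 Cited2CTL libraries, and the points of CKO 3 and CKO 4 spread most within the Cited2CKO group.

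Genes that act with the SLAP adaptors and SRC family kinases were drawn up in 6 lists of 131 genes, of which 109 were tested and 1 was called, higher, by edgeR, against 0.226% of all tested genes. Of the 109, 53 had a log2 fold change above 0 and 56 below, with a median of -0.0036, and 8 were higher and 11 lower at an unadjusted p under 0.05, against 5.80% and 7.08% of all tested genes.

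The called gene was *Clec4e*, which encodes the C-type lectin receptor Mincle and signals through an SRC family kinase substrate, the adaptor FCER1G. It had 52.2, 49, 55.6, 79.9 and 54.5 CPM in CTL 1 to CTL 5 and 147.8, 143, 100.2, 139.9 and 153.2 CPM in CKO 1 to CKO 5. Every Cited2CKO library exceeded every control, with CKO 3 the lowest of the Cited2CKO group. The log2 fold change was 1.23 with a standard error of 0.15 (edgeR adjusted p = 0.00394), and it was 1.32 without CKO 3. The rise of *Clec4e* was known when its list was written, which holds 20 genes of immune receptors and receptor adaptors that signal through tyrosine motifs. Of the 13 tested genes on that list 8 had a log2 fold change above 0 and 5 below, with a median of 0.14. *Cd33*, a sialic acid-binding receptor with 0 to 107 counts per library, had a log2 fold change of 2.08 with a standard error of 0.84 (edgeR adjusted p = 0.328). *Cd244a*, a SLAM receptor, had a log2 fold change of 0.75 with a standard error of 0.30 (edgeR adjusted p = 0.318).

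Of the adaptors and substrates of SRC family kinases, 44 of 48 were tested and 0 were called, with 22 log2 fold changes above 0 and 22 below. *Fyb*, an adaptor of immune cells that is phosphorylated by FYN, had 80.3, 80.3, 89.1, 86.3 and 82.7 CPM in CTL 1 to CTL 5 and 123.6, 133.6, 101.4, 137.9 and 104.8 CPM in CKO 1 to CKO 5. The groups did not overlap, and CKO 3 and CKO 5 were the lowest of the Cited2CKO libraries. The log2 fold change of *Fyb* was 0.52 with a standard error of 0.10 and missed the threshold (edgeR adjusted p = 0.0547). It passed in 6 of 21 other analyses, among them the one without CKO 3 (log2 fold change 0.58, adjusted p = 0.0218). *Stat3*, a transcription factor activated by SRC kinases, had a log2 fold change of -0.22 with a standard error of 0.07 (edgeR adjusted p = 0.229), and *Ptk2b*, a focal adhesion kinase, one of -0.17 (edgeR adjusted p = 0.386). With the correction for GC content and gene length *Stat3* stood at -0.14 and *Ptk2b* at -0.041.

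Of the receptors that SLAP or CBL are known to bind or lower, 12 of 19 were tested and 0 were called. The log2 fold change was -0.36 with a standard error of 0.11 for *Flt3*, a receptor of early progenitors (edgeR adjusted p = 0.194), and -0.21 with a standard error of 0.08 for *Kit*, the stem cell factor receptor (edgeR adjusted p = 0.290).

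Of the CBL family and its partners, 20 of 21 were tested and 0 were called. *Cblb*, the closest relative of *Cbl*, had 34.4, 49.5, 68.5, 40.7 and 69.4 CPM in CTL 1 to CTL 5 and 78.7, 90.8, 78.5, 79.7 and 56.5 CPM in CKO 1 to CKO 5. All Cited2CKO libraries except CKO 5 exceeded the highest control. The log2 fold change was 0.54 with a standard error of 0.19 (edgeR adjusted p = 0.263). *Nedd4*, a ubiquitin ligase of another family, had a log2 fold change of -0.23 (edgeR adjusted p = 0.271), and *Sorbs3*, an adaptor of the sorbin family, one of -0.38 (edgeR adjusted p = 0.275), which the correction for GC content and gene length brought to -0.18.

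Of the kinases, scaffolds and phosphatases that switch SRC family kinases on or off, all 16 of 16 were tested and 0 were called, with 7 log2 fold changes above 0 and 9 below. *Csk*, the kinase that inactivates the family, was at 73.5 ± 6.42 CPM in Cited2CTL and 70.7 ± 11.2 CPM in Cited2CKO HSCs (SD, n = 5 each). Its log2 fold change was -0.06 with a standard error of 0.12, and it turned to 0.18 with the correction for GC content and gene length and to 0.020 without CKO 3. *Matk*, the second kinase of the CSK type, had a log2 fold change of -0.28 (edgeR adjusted p = 0.297). The phosphatases *Ptpn22* and *Ptpn1* had log2 fold changes of 0.25 (edgeR adjusted p = 0.320) and -0.26 (edgeR adjusted p = 0.333). The same correction brought *Matk* to -0.071 and *Ptpn1* to -0.094.

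Of 7 other kinases related to the family 4 were tested and 0 were called. *Abl1* and *Abl2*, kinases that share the SH3, SH2 and kinase arrangement, had log2 fold changes of -0.11 and 0.20, and *Frk*, a SRC-related kinase of epithelial cells, had one of 0.56 with a standard error of 0.68. The direction for *Abl1* was not kept with the correction for GC content and gene length (0.019). *Abl2* stood at 0.12 with that correction and at 0.35 without CKO 3.

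**Figure D5:**
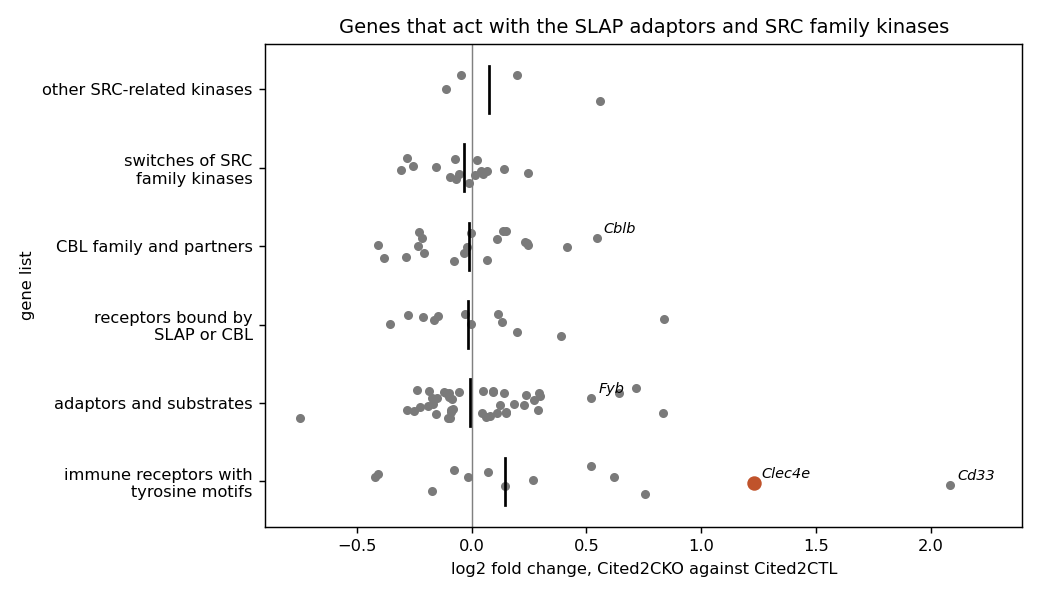
Each point is the log2 fold change of 1 tested gene, Cited2CKO against Cited2CTL, in the 6 lists, black bars mark the list medians and the orange point is the called gene. The medians lie between -0.03 and 0.14, and *Clec4e* stands at 1.23.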

How the data were processed

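RNA sequencing counts of LSKCD48-CD150+ HSCs from 5 Cited2CTL and 5 Cited2CKO mice were used, grouped by the sample labels, with 1 library per mouse. The deposited values were raw counts per gene symbol, which the authors had obtained from single-ended reads by alignment (HISAT2 2.1.0, GRCm38) and assignment to genes (Rsubread 2.0.1), and came with a table of gene lengths. Deposited totals of 3058690 to 4548795 counts make weakly expressed genes the least precise. The annotation used for counting, the use of strand and the handling of multi-mapping reads are not given in the sources used here.

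The genotypes were compared with edgeR 4.0.16 under R 4.3.3 (filterByExpr, TMM, robust quasi-likelihood F test of genotype, Benjamini-Hochberg adjustment over all tested genes). Genes were called at an adjusted p under 0.05 and a fold change above 20%. CPM used TMM-scaled totals, and profiles used log2 CPM with a prior count of 2. The common biological coefficient of variation was 25.3%. Genes overlapping members and the coding windows came from GENCODE annotation of GRCm38. Alternatives were DESeq2 1.42.0, its size factors in edgeR, raw totals, no filter, limma-voom (limma 3.58.1), a minimum of 10 counts per sample, 1 surrogate variable (sva 3.50.0), blocking by replicate number, an offset for GC and length (loess span 50%), that offset with the block, each library left out, an adjusted p under 0.01 and no fold threshold.

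The members, lists and tests were chosen with earlier results of these data known. Named genes were the members, *Cited2*, *Blk*, *Csk*, *Cblb*, genes overlapping a member, the called genes and the 3 smallest p-values of each list, and the 5 nearest profiles to *Sla*. Some genes that this rule names are not reported here. *Cd48*, *Mpo* and *Elane* were named after their values were seen.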

Additional observations from a re-analysis of the deposited data

Results flagged for a closer look

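Of 28 groups of 5 libraries tested for a library that stands apart from the rest (Dixon's gap over range above 0.71, which chance exceeds in about 1 in 20 groups), 3 were found. *Cited2* in CKO 3 was at 120.1 CPM (508 counts), and the next highest Cited2CKO library was at 8.30 CPM. *Blk* in CKO 2 was at 0.495 CPM, from 2 counts, and the other Cited2CKO libraries were at 0. *Csk* in CTL 1 was at 84.6 CPM, and the next Cited2CTL library was at 72.6 CPM.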

How the results depend on the processing

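The 32 genes called became 322 with DESeq2, 9 with the offset for GC and length, 12 with that offset and the replicate block, 8 at an adjusted p under 0.01 and 8 to 42 with 1 library left out (42 without CKO 3, 8 without CKO 2, and 10 to 16 without CTL 1, CTL 2, CTL 3, CTL 4, CKO 1 or CKO 5). The single called member was not called (0) with the offset, with the offset and block or at an adjusted p under 0.01, and 0 or 1 were called with 1 library left out. Log2 fold changes of *Sla* were 0.38 with the offset, 0.38 with the offset and block and 0.43 to 0.49 with 1 library left out. *Sla* was called again with the offset without CKO 3 (0.41), which was added after seeing the data. The 1 list gene called became 3 with DESeq2, 2 with raw totals, at least 10 counts or the surrogate variable, 3 with the offset without CKO 3 and 1 or 2 with 1 library left out. For *Cited2* the log2 fold change was -2.51 (adjusted p = 0.328), -3.99 with limma-voom, -4.80 with the offset without CKO 3 and -4.92 to -2.23 with 1 library left out. In Cited2CTL 7 of 9 members kept their rank without division by length, and 7 to 9 with 1 library left out. The cause of these shifts was not tested.

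Directions turned for *Lck* with limma-voom (-0.0017), the surrogate variable (-0.012) and 1 library left out (-0.091 to 0.11), for *Csk* with the offset (0.18), offset and block (0.17), offset without CKO 3 (0.24) and 1 library left out (-0.11 to 0.020), for *Abl1* with the same 3 offsets (0.019, 0.019 and 0.039) and for *Rab5if*, at 0.0039, with raw totals (-0.0026), no filter (-0.014), the same 3 offsets (-0.034, -0.034 and -0.051) and 1 library left out (-0.020 to 0.018). Same-numbered deviations correlated at -0.09 to 0.21. Only CTL 5 had its closest Cited2CKO library under its own number, at 0.19 against 0.028 for the best other. The replicate numbers were therefore not taken as pairs in the main fit. The block left 24 genes called and *Sla* at 0.47, called. Few counts limit *Fgr*, *Src* and *Blk*.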
